A study of Mus musculus with 2 samples.

Results

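The red cell barcodes of mouse mitral valve were described from 2 single-cell RNA libraries, and the question was what these barcodes hold besides haemoglobin messenger RNA and how their globin genes split. A droplet barcode was counted as a red cell barcode when genes with symbols starting Hba- or Hbb- gave more than 50% of its unique molecular identifiers (UMIs, each standing for 1 captured RNA molecule). The barcodes were thus selected on their measured haemoglobin UMIs. By this rule 437 of 4906 barcodes were red cell barcodes, of which WT contributed 192 among its 1104 barcodes and mgR 245 among its 3802. The WT library came from wild-type control mice and the mgR library from Fbn1 mgR/mgR mice. These carry in every cell of the body, on both chromosomes, an allele that lowers the output of fibrillin-1, the main microfibril protein of connective tissue. The mice were on a C57BL/6J background with wild-type littermates as controls, and the labels give no treatment and no number of animals per library. The study states that only male mice were compared, and it gives the same age for both genotypes in the single-cell data. The study's text gives a sample number for these data but not how animals were pooled into each library. Valve leaflets were digested with enzymes, viable cells were sorted, and 3′ ends were counted on the 10x v3 platform. There was 1 library for each genotype, so no difference between genotypes has a replicate check, genotype and library cannot be told apart, and no p-values are given. The intervals below are exact 95% intervals that cover counting error only. Red cell barcodes held 771850 of the 5381844 UMIs of WT and 1252653 of the 28215539 UMIs of mgR. The libraries shared 2 barcode sequences, neither of which was a red cell barcode in both.

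Circulating red cells carry oxygen on haemoglobin, a tetramer of alpha and beta chains with a haem group in each. Mouse alpha chains come from the duplicated genes Hba-a1 and Hba-a2, and adult beta chains from the neighbouring genes Hbb-bs and Hbb-bt. A red cell precursor expels its nucleus and becomes a reticulocyte, which can no longer transcribe, and which clears its mitochondria, ribosomes and remaining RNA as it matures. What RNA a red cell still holds is therefore a remainder from earlier transcription, dominated by globin.

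The proximal promoters are shown because the globin split below is between near-identical gene copies. Each run is the 110 bases before the RefSeq start (GRCm38.p6, which is mm10), written 5′ to 3′ on the gene's strand, with the motif CACCC, the box CCAAT and the box ATATAA on either strand in capitals. Against the GENCODE gene models, in which these genes start earlier, all 110 bases of the Hba-a1 and Hbb-bs runs lie inside the gene, with 73 of Hbb-bt, 42 of Alas2 and 3 of Hba-a2.
Hba-a1, chr11:32283562-32283671, + strand: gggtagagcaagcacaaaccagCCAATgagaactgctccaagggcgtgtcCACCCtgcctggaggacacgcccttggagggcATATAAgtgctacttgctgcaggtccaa
Hba-a2, chr11:32296382-32296491, + strand: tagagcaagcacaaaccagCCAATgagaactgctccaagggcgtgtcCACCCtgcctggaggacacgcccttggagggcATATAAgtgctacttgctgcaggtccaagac
Hbb-bs, chr7:103827929-103828038, - strand: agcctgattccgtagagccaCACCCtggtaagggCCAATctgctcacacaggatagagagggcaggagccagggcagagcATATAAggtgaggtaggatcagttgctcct
Hbb-bt, chr7:103813924-103814033, - strand: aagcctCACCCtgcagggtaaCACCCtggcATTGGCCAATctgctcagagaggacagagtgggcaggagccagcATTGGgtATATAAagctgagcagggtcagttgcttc
Alas2, chrX:150547307-150547416, + strand: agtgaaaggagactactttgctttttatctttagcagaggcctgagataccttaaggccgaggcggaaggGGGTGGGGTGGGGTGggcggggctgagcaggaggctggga
All 4 globin runs held the 3 motifs, whereas the run of Alas2, the gene of the first enzyme of haem synthesis in red cells, held CACCC on the opposite strand and neither of the others. Among 32851 promoter runs of this length, the motif CACCC was found in 29.6%, the box CCAAT in 20.2% and the box ATATAA in 4.09%, on either strand. The Hba-a1 and Hba-a2 runs were identical over the 107 bases that aligned, and the Hbb-bs and Hbb-bt runs matched at 85 of 106 aligned bases. The promoters alone thus gave no letters by which the alpha copies differ.

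The same holds for the transcripts, which bears on how far the split between copies can be read. The Hba-a1 and Hba-a2 messenger RNAs differed at 1 of 538 aligned bases, and 57.3% of the 90-base windows in the last 300 bases of Hba-a1 occurred in Hba-a2 as well. The division of alpha UMIs between these copies is therefore uncertain. The Hbb-bs and Hbb-bt messenger RNAs were 93.1% identical, and 24.6% of such windows of Hbb-bs occurred in Hbb-bt. Reads in the shared windows cannot be assigned to 1 copy, so the Hbb-bt share is less uncertain than the alpha split but not free of this limit. More windows were shared between the alpha copies than between the beta copies. If unassigned reads went uncounted, the level of alpha against beta and the order of the genes would be affected as well, which was not tested.

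Red cell barcodes made up 17.4% of WT barcodes (95% interval 15.2 to 19.8) and 6.44% of mgR barcodes (5.68 to 7.27), a difference of -10.9 percentage points (-13.4 to -8.60). In number they were more in mgR, 245 against 192, beside 3557 other barcodes in mgR and 912 in WT. The lower share is thus not a lower number of red cell barcodes. Since membership was set by haemoglobin, its level is a description. The haemoglobin share of a red cell barcode ran from 87.6% to 99.2% with a median of 96.3% in WT, and from 50.8% to 98.8% with a median of 97.3% in mgR. The nearest red cell barcodes inside the threshold stood at 87.6% and 89.0% in WT and at 50.8%, 73.2% and 82.5% in mgR. The nearest barcodes outside stood at 36.8%, 23.6% and 16.3% in WT and at 38.8%, 36.1% and 35.6% in mgR. Between 1% and 50% haemoglobin lay 3 WT and 7 mgR barcodes, so few barcodes depended on where the threshold was placed. Red cell barcodes held 98.6% of all haemoglobin UMIs in WT and 98.4% in mgR.

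**Figure D1:**
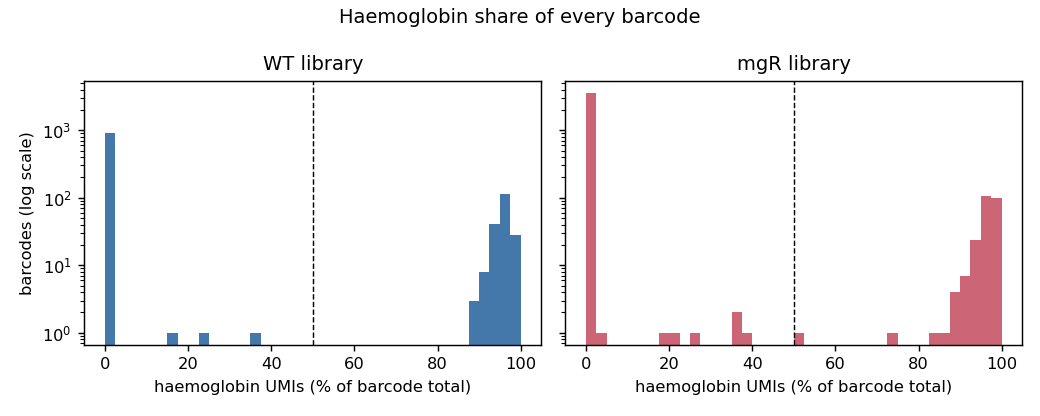
Histogram of the haemoglobin share of all UMIs in each barcode (x axis, percent) against the number of barcodes (y axis, log scale) for the WT and mgR libraries, with a dashed line at the 50% threshold. Most barcodes lie near 0 or above 87%, and 3 WT and 7 mgR barcodes lie between 1% and 50%.

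Haemoglobin UMIs were also spread thinly over the valve cells. Among the other barcodes 67.9% in WT and 40.3% in mgR carried at least 1 haemoglobin UMI, with a median of 1 and 0 UMIs. Their median depth was 4872 UMIs in WT and 7211 in mgR, against 4399.5 and 4671 UMIs in red cell barcodes. In the 909 WT and 3550 mgR barcodes with at most 1% haemoglobin, haemoglobin UMIs amounted to 0.0261% and 0.00718% of UMIs. They are called background below as a label, and their source was not tested. Over all other barcodes the values were 0.224% and 0.0731%, of which the 3 WT and 7 mgR barcodes between 1% and 50% held most, with 88.4% and 90.2% of these haemoglobin UMIs. Alas2 stood at 0.144% of the haemoglobin count in WT red cell barcodes (0.135 to 0.153) and at 0.145% in the other WT barcodes (0.0813 to 0.239, from 15 UMIs). In mgR it stood at 0.104% (0.0979 to 0.109) and 0.0863% (0.0503 to 0.138, from 17 UMIs). Of these Alas2 UMIs in the others, 13 in WT and 16 in mgR lay in the 3 and 7 barcodes over 1% haemoglobin. The barcodes with at most 1% haemoglobin held 2 and 1, too few to compare. Relative to haemoglobin, Alas2 was thus not distinguishable between red cell barcodes and the others at this depth. That comparison rests mostly on the few barcodes over 1% and says little about the rest.

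Red cell barcodes were deep in UMIs and poor in genes. Totals ran from 665 to 8557 UMIs in WT and from 506 to 12615 in mgR. The median number of genes was 57 in both libraries, against 1828.5 and 2323 in the other barcodes. Fewer than 200 genes were detected in 191 WT and 239 mgR red cell barcodes, which were nearly all of the 192 WT and 253 mgR barcodes under that number. Under the study's filter of 200 to 5000 genes and at most 10% mitochondrial UMIs, 1 WT and 6 mgR red cell barcodes remained among 875 and 3438 barcodes. The non-haemoglobin RNA of a red cell barcode had a median of 124 UMIs in WT and 107 in mgR.

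A small number of mgR barcodes also held markers of other cells. At least 5 UMIs of markers of nucleated valve or blood cells (fibroblast, macrophage, endothelial, T cell, B cell, neutrophil, cardiomyocyte or melanocyte) were found in 14 mgR and 0 WT red cell barcodes, and these 14 held 25.8% of the mgR non-haemoglobin UMIs. The richest held 4949 non-haemoglobin UMIs and 1774 genes, with 334 macrophage marker UMIs. The next held 2242 such UMIs, with 517 neutrophil marker UMIs, of which 317 were S100a9, a calcium-binding protein abundant in neutrophils. The third held 1412, with 42 fibroblast and 13 macrophage marker UMIs. Not all of the 14 were so rich, and the one at 87.6% haemoglobin held 136 non-haemoglobin UMIs with 9 marker UMIs. The 14 barcodes combine haemoglobin with marker UMIs of other cell types and are called mixed below. The results that they move most are also given without them. No doublet caller was run. Over all red cell barcodes, the non-haemoglobin share was 4.07% of UMIs in WT and 3.45% in mgR, and 2.75% in mgR without the mixed barcodes.

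Adult globin genes accounted for the whole haemoglobin signal, and the split between alpha and beta chains differed between the libraries. Hbb-bs gave 61.6% of haemoglobin UMIs in WT and 56.3% in mgR red cell barcodes. Hbb-bt gave 10.4% and 8.25%, Hba-a1 16.2% and 20.5%, and Hba-a2 11.8% and 14.9%. The order Hbb-bs, Hba-a1, Hba-a2, Hbb-bt was the same in both libraries, in UMIs of 3′ ends, which do not scale with gene length. Each of these genes was detected in every WT red cell barcode, and in every mgR one except that Hbb-bt was at 0 in 2 of 245. The sum of these globin genes selected the barcodes, so their detection was largely fixed in advance and does not bear on identity. Alas2, the marker outside the rule, was detected in 88.5% of WT and 78.8% of mgR red cell barcodes. In the other barcodes it was detected in 0.439% and 0.169%.

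The embryonic globin genes were not found. Hbb-bh1, Hbb-bh2 and Hbb-y of the beta cluster and Hba-x of the alpha cluster gave 0 UMIs in the red cell barcodes of either library, which allows a share of up to 1.56% of WT and 1.22% of mgR barcodes with a UMI. The theta-like globin genes Hbq1a and Hbq1b, which did not enter the rule, were detected at trace level. Hbq1a gave 13 UMIs in WT and 26 in mgR red cell barcodes, and Hbq1b gave 11 and 10. In the other barcodes Hbq1a gave 0 and 1 UMI and Hbq1b 2 and 0, although those barcodes held 4599663 and 26943188 non-haemoglobin UMIs. In the files' build, mm10, the alpha genes lay on chromosome 11, with Hba-x at 32276400 to 32278116, Hba-a1 at 32283511 to 32284465, Hbq1b at 32286965 to 32287784, Hba-a2 at 32296489 to 32297298 and Hbq1a at 32300069 to 32300873. The beta genes lay on the minus strand of chromosome 7, with Hbb-bt at 103812524 to 103813996, Hbb-bs at 103826534 to 103828096, Hbb-bh2 at 103839124 to 103840520, Hbb-bh1 at 103841637 to 103843164 and Hbb-y at 103851749 to 103853216.

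Alpha transcripts (Hba-a1 and Hba-a2 together) formed 28.0% of haemoglobin UMIs in WT red cell barcodes (27.9 to 28.1) and 35.4% in mgR ones (35.3 to 35.5). These intervals do not cover the limit from windows shared between gene copies. Over single barcodes the lowest, median and highest alpha share were 15.5%, 28.2% and 47.8% in WT, and 24.1%, 35.8% and 59.8% in mgR. The ranges overlapped, but 233 of 245 mgR barcodes lay above the WT median and 16 of 192 WT barcodes lay above the mgR median. Barcodes of 1 library are not replicates of a genotype, so this says how the libraries differed and not whether the genotypes do.

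The background haemoglobin in valve cells gave another reading of the same ratio. Among other barcodes with at most 1% haemoglobin, a limit chosen after seeing the data, alpha transcripts formed 29.6% of haemoglobin UMIs in WT (27.0 to 32.3) and 30.1% in mgR (28.0 to 32.2). The interval of the WT background included the 28.0% of the WT red cell barcodes, while that of the mgR background lay below the 35.4% of the mgR red cell barcodes. These shares rest on 1195 and 1930 haemoglobin UMIs, at which depth no difference between the libraries was detectable in the background. Over all other barcodes, most of whose haemoglobin UMIs lie in the 3 and 7 barcodes between 1% and 50%, the alpha share was 27.0% in WT (26.2 to 27.9) and 32.7% in mgR (32.1 to 33.4).

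**Figure D2:**
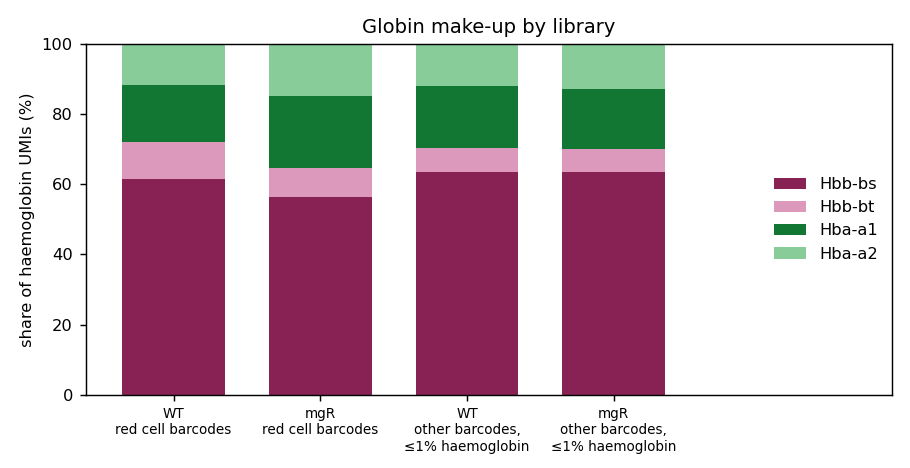
Stacked bars of the share of haemoglobin UMIs from Hbb-bs, Hbb-bt, Hba-a1 and Hba-a2 (y axis, percent) in red cell barcodes and in other barcodes with at most 1% haemoglobin, for 1 WT and 1 mgR library, with UMIs summed over barcodes. The alpha part is 28.0% and 35.4% in WT and mgR red cell barcodes and 29.6% and 30.1% in the other barcodes.

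The division of alpha UMIs between the copies was alike in the libraries within counting error. Hba-a2 formed 42.1% of alpha UMIs in WT (41.9 to 42.3) and 42.1% in mgR (41.9 to 42.2). Single barcodes ran from 32.8% to 50.3% in WT and from 31.5% to 52.1% in mgR, with a median of 41.9% in both. Given the identity of these messenger RNAs noted above, how far the assignment of reads sets this share was not tested.

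Relative to its mean, the Hbb-bt share of beta UMIs varied more between barcodes than the alpha share did. The standard deviation was 6.25 points about a mean of 12.5% in WT and 7.24 about 8.52% in mgR. For the alpha share it was 4.94 about 28.7% and 6.89 about 37.5%. The Hbb-bt share of beta UMIs (Hbb-bs and Hbb-bt) ran from 0.512% to 25.7% in WT, with a median of 12.7%, and from 0% to 31.5% in mgR, with a median of 6.57%. Summed over barcodes the share was 14.5% in WT and 12.8% in mgR, a smaller gap than between the medians, since deep barcodes weigh more in the sum. The median WT barcode held 367.5 Hbb-bt UMIs and the median mgR barcode 172, while Hbb-bs stood at 2636.5 and 2801. In the background haemoglobin of other barcodes Hbb-bt formed 9.63% (7.72 to 11.8) and 9.33% (7.83 to 11.0) of beta UMIs.

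The Hbb-bt share went up with the number of UMIs in a barcode. Spearman's rho between them was 0.67 over 192 WT and 0.89 over 245 mgR barcodes, which within a library share preparation and sequencing depth. In 5 ranges of depth chosen after seeing the data (up to 1500, 3000, 5000 and 7000 UMIs, and above) the median Hbb-bt share was 6.05%, 6.20%, 11.1%, 16.7% and 22.4% in WT. In mgR it was 1.12%, 2.74%, 3.70%, 8.60% and 16.7%. These medians were lower in mgR than in WT in all 5 ranges, which held 33, 25, 63, 64 and 7 WT and 45, 44, 36, 42 and 78 mgR barcodes.

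The alpha share moved with depth in the other direction in mgR. Its medians in the same ranges were 33.8%, 30.1%, 26.8%, 28.2% and 28.6% in WT and 44.1%, 40.5%, 37.5%, 34.9% and 34.3% in mgR. The mgR median was the higher in every range, so the difference between the libraries was also present within ranges of depth. The range above 7000 UMIs is not matched in depth, with 7 WT barcodes of at most 8557 UMIs against 78 mgR barcodes of up to 12615. Spearman's rho of the alpha share with depth was -0.22 in WT and -0.43 in mgR. The Hba-a2 share of alpha UMIs showed no such course, with medians between 41.2% and 43.5% in all ranges of both libraries.

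**Figure D3:**
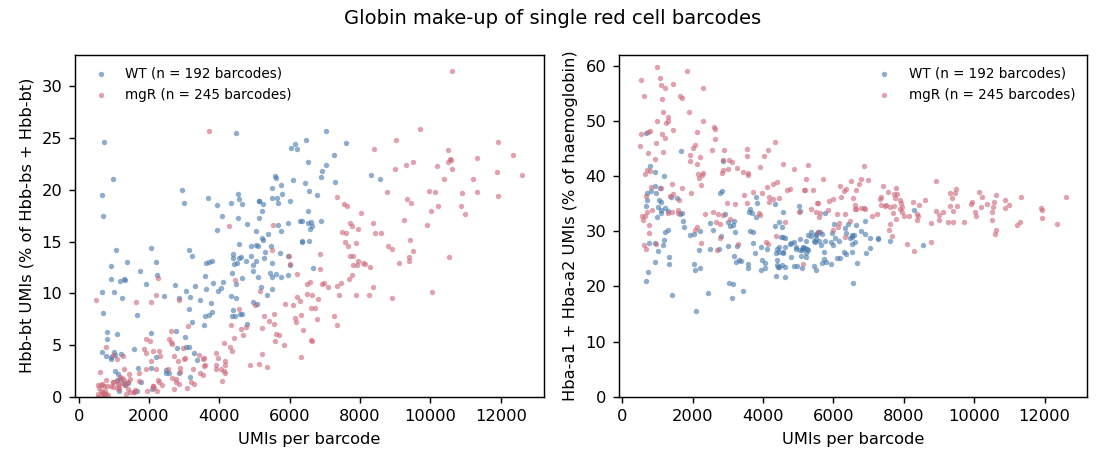
Each point is 1 red cell barcode (192 WT, 245 mgR), with its UMIs on the x axis and, on the y axes, Hbb-bt as a percent of Hbb-bs and Hbb-bt UMIs (left) or Hba-a1 and Hba-a2 as a percent of haemoglobin UMIs (right). The Hbb-bt share climbs with depth in both libraries and the mgR points of the alpha share lie mostly above the WT ones.

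Outside haemoglobin the red cell barcodes held a short list of RNAs, led by transcripts of the ribosomal RNA locus and by red cell genes. The non-haemoglobin UMIs summed to 31393 in WT and 43155 in mgR, from 1920 and 4122 genes, and the 20 highest genes by their mean over the libraries, ribosomal protein and mitochondrial genes set apart, held 56.5% and 43.7% of them. The most abundant was Gm42418, a non-coding gene on chromosome 17 (39846958 to 39848788, plus strand) that overlaps ribosomal RNA sequence, with 22.0% of non-haemoglobin UMIs in WT and 13.3% in mgR. AY036118, annotated on the opposite strand of the same locus (39847113 to 39848035), held 3.99% and 0.985%. Because these genes overlap, the division between them is uncertain. Together they formed 26.0% and 14.3% of non-haemoglobin UMIs in red cell barcodes and 2.65% and 1.58% in other barcodes.

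Among protein-coding genes, haem synthesis stood out. The 14 genes of this list formed 4.43% of non-haemoglobin UMIs in WT and 3.71% in mgR red cell barcodes, against 0.0372% and 0.0362% in the others. Most of it came from Alas2, with 1066 of 1390 and 1252 of 1600 UMIs, or 3.40% and 2.90%. Slc25a37, the mitochondrial iron importer, held 0.647% and 0.431%, and Fech, the enzyme that inserts iron into haem, 0.357% and 0.350%. Alad, Urod, Cpox and Ppox, which act between the first step and the last, gave at most 4 UMIs each in either library. The red cell barcodes thus held RNA of the first and last enzymes of the pathway and of its iron importer, with almost none of these 4.

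The list named for how reticulocytes clear their organelles and proteins formed the largest red cell group besides haemoglobin. The 20 genes of this list held 11.9% of non-haemoglobin UMIs in WT and 9.18% in mgR red cell barcodes (11.1% without the mixed barcodes), against 0.481% and 0.439% in the others. The polyubiquitin gene Ubb held 3.76% and 2.26%, and Mkrn1, a ubiquitin ligase, 2.02% and 1.78%. Bnip3l, the receptor by which mitochondria are taken up for degradation, held 0.898% and 0.848%. Tent5c, counted here although it encodes a poly(A) polymerase, held 0.889% and 0.570%, and the ubiquitin-conjugating enzyme gene Ube2l6 0.838% and 0.839%.

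The red cell metabolism and antioxidant list of 12 genes held 5.50% and 3.75% of non-haemoglobin UMIs (4.37% in mgR without the mixed barcodes), against 0.164% and 0.217% in the other barcodes. Bpgm, the enzyme that makes the allosteric effector 2,3-bisphosphoglycerate, led it with 2.07% and 2.01%. Gpx1, which reduces hydrogen peroxide, held 1.50% and 0.860%, the peroxiredoxin gene Prdx2 0.717% and 0.315%, the biliverdin reductase gene Blvrb 0.433% and 0.181%, and Car2, a carbonic anhydrase, 0.424% and 0.130%. Car1, another carbonic anhydrase, gave 0 and 1 UMI.

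The other genes among the 20 highest were Oaz1, Sec61g, Gabarapl2, Isg20, Lars2 and the histone gene H3f3a. Oaz1, which encodes an inhibitor of polyamine synthesis, held 2.27% and 2.25% of non-haemoglobin UMIs, and Sec61g, a subunit of the channel for secreted proteins, 1.60% and 0.772%. Gabarapl2, which acts in autophagy, held 0.844% and 0.795%, and Isg20, an exonuclease gene, 0.787% and 0.721%. Lars2, the mitochondrial leucyl-tRNA synthetase gene, held 0.647% and 0.864%, and H3f3a 0.704% and 0.635%.

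Membrane and membrane-skeleton genes, 20 in the list, held 1.17% and 0.591%, or 0.731% in mgR without the mixed barcodes. Epb41, which encodes a skeleton protein, held 0.678% and 0.424%. The anion exchanger gene Slc4a1 gave 15 and 12 UMIs, while the beta-spectrin gene Sptb gave 0 in both libraries. Detected at least once were 11 of the 20 genes in WT and 7 in mgR.

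The transcription factors that drive red cell development were not detected. Gata1, Klf1, Tal1, Nfe2, Gfi1b and Bcl11a, with the erythropoietin receptor gene Epor, gave 0 UMIs in the red cell barcodes of both libraries, which allows up to 95.6 and 69.5 counts per 1000000 non-haemoglobin UMIs (CPM). Of the 11 genes of this list that the matrices hold, Lmo2 gave 9 and 8 UMIs and Zfpm1 1 and 0. The 12 genes of the cell cycle list gave 3 and 13 UMIs. Genes of cell division outside that list gave more, with 67 and 39 UMIs of Ube2c, 28 and 47 of Pttg1 and 19 and 18 of Nusap1. The low count thus holds for the list and not for all cell cycle genes. Malat1, a nuclear long non-coding RNA that was found in 98.2% and 99.2% of other barcodes, was found in 21.4% of WT and 40.4% of mgR red cell barcodes and held 0.143% and 0.987% of their non-haemoglobin UMIs. Of its 426 UMIs in mgR 128 remained without the mixed barcodes, which is 0.400%, and it was then found in 39.0% of barcodes. The ratio of mgR to WT was 6.89 with the mixed barcodes and 2.79 (1.97 to 4.01) without them.

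Iron and ribosome genes were present at levels nearer to those of valve cells. The iron list of 10 genes held 4.82% and 6.94% of non-haemoglobin UMIs in red cell barcodes, against 1.75% and 2.29% in the others. Ferritin light chain Ftl1 held 3.10% and 4.84%, about 6 times its level in the other barcodes of each library (6.02 and 5.90 times), while ferritin heavy chain Fth1 held 1.52% and 1.91%, or 1.28 and 1.33 times its level there. Without the mixed barcodes Fth1 held 1.57% in mgR, and its ratio of mgR to WT went from 1.25 to 1.03 (0.911 to 1.17). The transferrin receptor gene Tfrc, through which developing red cells take up iron, gave 1 and 0 UMI, and the iron exporter gene Slc40a1 gave 0. Ribosomal protein genes held 8.26% and 10.4%, against 14.5% and 14.8% in the others. Rpl41 was the highest of them with 1.16% and 1.43%, and was 4.68 and 7.02 times its level in other barcodes. Mitochondrial genes held 2.29% and 1.55%, against 2.73% and 1.89% in other barcodes, led by mt-Co1 with 0.691% and 0.375%.

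Markers of other cell types were scarce in the WT red cell barcodes. Macrophage markers held 0.217% of their non-haemoglobin UMIs, against 2.93% in other barcodes, and fibroblast markers 0.115% against 1.23%. Platelet markers gave 2 UMIs and neutrophil markers 4, endothelial markers 3, melanocyte markers 1, and T cell, B cell and cardiomyocyte markers 0. In mgR, macrophage markers held 1.43%, neutrophil markers 1.21% and fibroblast markers 0.190%, or 0.672%, 0.0156% and 0.100% without the mixed barcodes. Since mixed barcodes were defined by these same markers, a fall was fixed in advance. Platelet markers gave 14 UMIs in mgR, all of Pf4, while the platelet genes Ppbp, Gp9 and Itga2b were at 0 in both libraries. Endothelial markers gave 5 UMIs in mgR, T cell, B cell and cardiomyocyte markers 1 each and melanocyte markers 0.

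**Figure D4:**
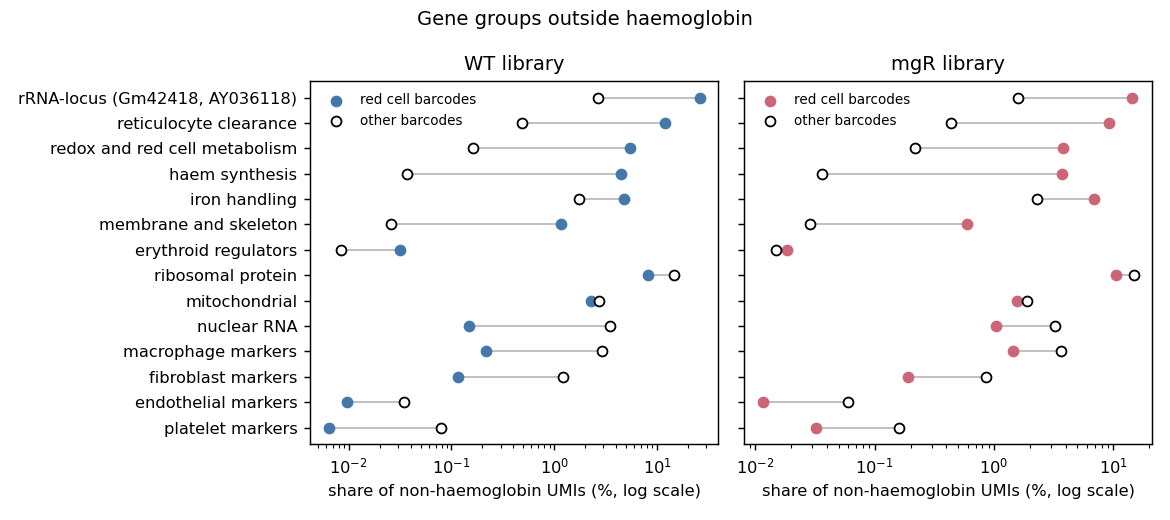
Summed level of gene groups as a percent of non-haemoglobin UMIs (x axis, log scale) in red cell barcodes (filled) and other barcodes (open) of the WT and mgR libraries. Haem synthesis stands at 4.43% and 3.71% in red cell barcodes against 0.0372% and 0.0362% in others, while nuclear RNA stands at 0.147% and 1.04% (0.419% in mgR without the mixed barcodes) against 3.47% and 3.27%.

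The genes that most set red cell barcodes apart were compared within each library, so that the library itself does not enter. Of 224 genes with at least 10 UMIs in the red cell barcodes of each library, 127 (percent called 56.7) were at least 2-fold higher than in other barcodes in both libraries, on the scale of CPM over non-haemoglobin UMIs. These genes entered because they were detected in red cell barcodes, whose members were chosen on haemoglobin, so the count is partly fixed by that filter and is a description. Genes at or near 0 in red cell barcodes did not enter.

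The 15 genes with the highest ratios were mostly known red cell genes. Alas2 stood at 33957 CPM in WT red cell barcodes against 3.26 CPM in the others. Tspo2, which encodes a translocator protein of red cell membranes, was not found in any other barcode of either library, and against a floor of 3 counts it was at least 1758-fold higher in WT and at least 5203-fold in mgR. Slc4a1 was likewise at 0 in the others. Others were Apol11b, Rec114, Bpgm, Hbq1a, Car2, Ube2l6, Hbq1b, Isg20, Mkrn1 and Fech. Rec114 is known for its part in meiotic recombination, and gave 52 and 50 UMIs in red cell barcodes against 1 and 18 in the 912 and 3557 other barcodes. Apol11b, of the apolipoprotein L family, gave 68 and 108 UMIs against 4 and 5.

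Levels of the non-haemoglobin genes were then set side by side between the libraries, again with no replicate. Of 313 genes with at least 20 UMIs over both libraries, 80 (percent called 25.6) were at least 2-fold higher in mgR and 29 (percent called 9.27) at most 0.5 times the WT level. The median gene ratio was 1.09, or 0.13 on the log2 scale. With CPM taken over all UMIs instead, 68 genes were higher and 42 lower. Without the mixed barcodes 36 of 255 genes were higher and 18 lower.

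The higher genes by the rule for named genes were those of other cell types. S100a9, S100a8, H2-Ab1, Wfdc17 and Cd14 led, with 321, 172, 52, 37 and 35 UMIs in mgR against 3, 1, 4, 2 and 0 in WT. A single barcode held 98.8% of the mgR UMIs of S100a9, 100% of S100a8 and 80.8% of H2-Ab1, an antigen-presentation gene. For the macrophage genes Wfdc17 and Cd14 1 barcode held 40.5% and 45.7%. Without the mixed barcodes the mgR red cell barcodes held 3 UMIs of S100a9, 0 of S100a8, 9 of H2-Ab1, 18 of Wfdc17 and 5 of Cd14. Mixed barcodes were defined by marker UMIs, and S100a9 and S100a8 are among the neutrophil markers. The fall of these markers thus follows from the definition and is a description. S100a9 then stood at 0.981 of the WT level, while Wfdc17 still had a ratio of 8.83 (2.11 to 78.4), from 18 UMIs in 15 of 231 mgR barcodes against 2 in 2 of 192 WT barcodes. In the other barcodes Wfdc17 was higher in mgR as well, at 1044 against 466 CPM.

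The lower genes included Car2 of the red cell lists, and those given here were lower without the mixed barcodes as well. Car2 gave 133 UMIs in WT and 56 in mgR, a CPM ratio of 0.306 (0.220 to 0.422), or 0.339 without the mixed barcodes. It was found in 16.1% of WT and 6.94% of mgR red cell barcodes. AY036118 had a ratio of 0.247 (0.221 to 0.276), and was also lower in the other barcodes of mgR, at 668 against 3235 CPM, so the difference was not particular to red cells. The low counts of Paip2, which encodes a regulator of translation (19 and 7 UMIs), and Glo1, the glyoxalase gene (20 and 8 UMIs), gave ratios of 0.268 (0.0952 to 0.666) and 0.291 (0.111 to 0.690).

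Counts by list are set beside the 25.6% higher and 9.27% lower among all genes tested, and they are a description of these libraries. In the metabolism and antioxidant list 0 of 9 tested genes were at least 2-fold higher and 4 (among them Prdx2, Blvrb and Car2) at most 0.5 times, with a median ratio of 0.573 against 1.09 over all genes tested and a summed level at 0.682 of WT, or 0.795 without the mixed barcodes. In the clearance list it was 0 and 2 (Ube2o and Trim10) of 16 with a median of 0.727 and a summed level at 0.769 of WT, or 0.927 (0.885 to 0.971) without the mixed barcodes. In the membrane list it was 0 and 1 of 4 with a median of 0.544 and a summed level at 0.504, or 0.624 without them. In the haem list it was 0 and 0 of 3 with a median of 0.854, and its summed level, at 0.837 of WT, stood at 1.04 without the mixed barcodes. The iron list had a summed ratio of 1.44 (1.35 to 1.53), or 1.59 (1.50 to 1.70) without the mixed barcodes, with 0 and 0 of 3. Prdx2 stood at 0.440 (0.353 to 0.546), Blvrb at 0.417 (0.312 to 0.555), Gpx1 at 0.573 (0.499 to 0.658) and Ubb at 0.602 (0.553 to 0.656), though Ubb stood at 1.04 as a mean over barcodes, whereas Bpgm of the same metabolism list stood at 0.971 (0.876 to 1.08).

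Ferritin light chain and the growth-related gene Tpt1 went the other way. Ftl1 had a ratio of 1.56 (1.45 to 1.69), and 1.90 without the mixed barcodes. Tpt1 had 1.63 (1.48 to 1.80), and 1.96 without them. In the other barcodes Ftl1 was likewise higher in mgR, at 8207 against 5145 CPM, and Tpt1 at 6486 against 4241 CPM. Of 69 ribosomal protein genes tested, 18 were at least 2-fold higher in mgR, a share near the 25.6% of all genes tested, and 0 were at most 0.5 times, with a median of 1.41 against 1.09 over all. Alas2 stood at 0.854 (0.787 to 0.928), but at 1.06 without the mixed barcodes, where its interval of 0.973 to 1.15 included 1, so no direction can be given for it.

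Several of these differences were looked at by the Hbb-bt share of a barcode. Hbb-bt UMIs are part of the haemoglobin sum that selected the barcodes, though their split from Hbb-bs was not used, so the values below are a description. Red cell barcodes were divided by their Hbb-bt share of beta UMIs into those under 5%, from 5% to 15%, and from 15% up, limits that were chosen after seeing the data. WT barcodes fell 32, 94 and 66 into these ranges and mgR barcodes 106, 89 and 50. The range under 5% thus held 16.7% of WT red cell barcodes (11.7 to 22.7) and 43.3% of mgR ones (37.0 to 49.7). Median depth was higher in each range than in the one before, at 1609, 4071 and 5709.5 UMIs in WT and 2001.5, 6484 and 9599.5 in mgR, so depth and the Hbb-bt share cannot be told apart here.

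The metabolism and antioxidant list was found mostly in barcodes with a high Hbb-bt share. It held 0.703%, 3.45% and 7.43% of non-haemoglobin UMIs across the 3 ranges in WT, and 0.699%, 1.67% and 7.96% in mgR. Gpx1 gave 0, 1.07 and 5.61 UMIs per barcode in WT and 0.0755, 0.494 and 6.38 in mgR. Car2 gave 0 UMIs in all 32 WT barcodes of the lowest range, 5 in the 94 of the middle range and 128 in the 66 of the highest. In mgR it gave 1, 3 and 52. These genes were therefore seen mainly where Hbb-bt was high, in both libraries.

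Other red cell genes were spread more evenly. Alas2 held 2.28%, 4.18% and 3.03% of non-haemoglobin UMIs across the ranges in WT and 2.62%, 2.73% and 3.26% in mgR. Ftl1 held 3.69%, 3.81% and 2.57% in WT and 4.71%, 4.71% and 5.07% in mgR. Tpt1 held 2.85%, 1.96% and 1.67% in WT, the highest share in the range of lowest Hbb-bt, and 4.48%, 2.28% and 3.25% in mgR. Transcripts of the ribosomal RNA locus formed the smaller share the higher the range, with 47.2%, 31.9% and 19.5% in WT and 25.4%, 12.5% and 11.0% in mgR, although Gm42418 per barcode stood at 30.7, 32.6 and 43.4 UMIs in WT. The clearance list held 4.61%, 10.2% and 14.0% in WT and 5.96%, 6.43% and 14.3% in mgR. In the middle range of mgR these shares include mixed barcodes, without which the clearance list held 10.5%, the metabolism list 2.58%, Alas2 4.75%, Ftl1 7.33%, Tpt1 3.75% and the ribosomal RNA locus 19.5%.

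**Figure D5:**
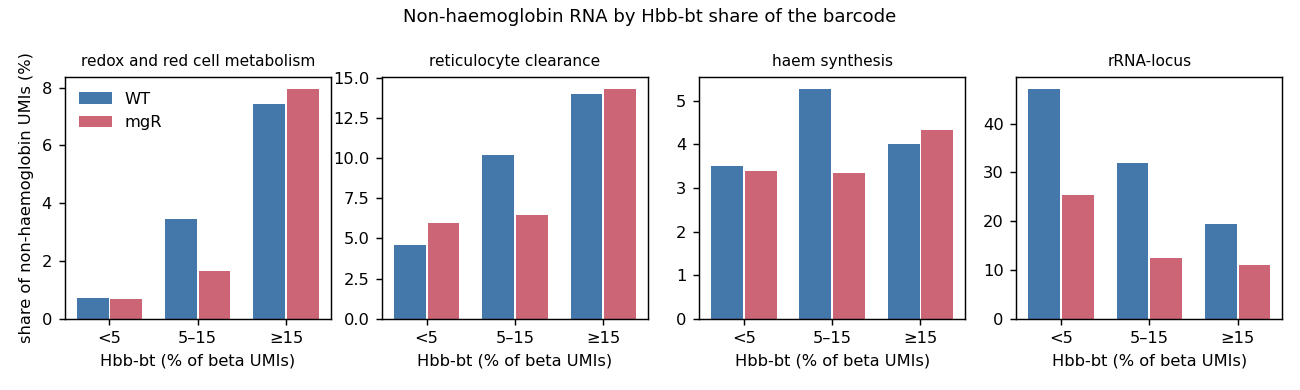
Bars show the share of non-haemoglobin UMIs (y axes, percent, each panel with its own scale) held by 4 gene groups in red cell barcodes with an Hbb-bt share of beta UMIs under 5%, from 5% to 15%, and from 15% up, for 1 WT (32, 94 and 66 barcodes) and 1 mgR library (106, 89 and 50), all barcodes included. The metabolism and antioxidant group climbs from 0.703% to 7.43% in WT and from 0.699% to 7.96% in mgR, while the ribosomal RNA locus goes from 47.2% to 19.5% and from 25.4% to 11.0%.

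Within the range of high Hbb-bt some differences between the libraries were no longer seen and others were. The metabolism and antioxidant list, at 0.682 of the WT level over all red cell barcodes (0.637 to 0.730), stood at 1.07 (0.991 to 1.16) in the 66 WT and 50 mgR barcodes with an Hbb-bt share of at least 15%, and at 0.994 (0.561 to 1.86) in those under 5%. In the middle range it stood at 0.483 (0.416 to 0.560), or 0.748 (0.639 to 0.876) without the mixed barcodes. The clearance list went from 0.769 over all to 1.02 (0.967 to 1.08) in the high range, and stood at 0.630 (0.582 to 0.683) in the middle range, or 1.03 there without the mixed barcodes, with an interval that included 1. Gpx1 went from 0.573 to 0.986 (0.846 to 1.15) in the high range, but stood at 0.251 (0.172 to 0.361) in the middle range and 0.377 (0.249 to 0.559) there without the mixed barcodes. The list values are sums, and in the high range single genes of both lists went opposite ways. Prdx2 stayed lower at 0.705 (0.553 to 0.895) and Blvrb at 0.597 (0.429 to 0.822), while Bpgm stood at 1.64. In the clearance list Ubb stood at 0.615, while Mkrn1 stood at 1.43 (1.24 to 1.63) and Bnip3l at 1.48 (1.20 to 1.81).

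Car2 and Ubb stayed lower in the mgR barcodes of high Hbb-bt share, with ratios of 0.465 (0.330 to 0.646) and 0.615 (0.551 to 0.687). For Ubb the direction changed with the range, with a ratio of 3.71 (2.06 to 7.34) under 5%, from 12 WT and 154 mgR UMIs, and of 0.784 (0.660 to 0.931) in the middle range, or 1.27 (1.07 to 1.52) there without the mixed barcodes. In the range of high Hbb-bt the membrane list stood at 0.519 (0.413 to 0.648). Ftl1 at 1.97 (1.76 to 2.22), Tpt1 at 1.95 (1.69 to 2.26) and Bpgm at 1.64 (1.45 to 1.86) were higher in mgR in that range. Mitochondrial genes stood at 0.545 (0.455 to 0.651) in the same range, with mt-Co1 at 0.572 (0.420 to 0.772). The alpha share in this range was 28.0% in WT and 34.0% in mgR, and in the range of lowest Hbb-bt it was 28.3% and 38.7%, so the difference in alpha share was present at both ends.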

How the data were processed

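Single cells of mouse mitral valve were profiled with 10x 3′ v3 chemistry in 1 WT and 1 mgR library. The deposited files hold UMI counts per gene and barcode, made by the authors with Cell Ranger 7.1.0 on mm10, and were used without further filtering. Counts came as whole numbers for 32285 features, of which 32158 were matched by gene ID to the GENCODE M21 annotation.

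Barcodes with over 50% of UMIs from Hba- or Hbb- genes were selected in both libraries. CPM was computed over non-haemoglobin UMIs summed over barcodes. Because each genotype has 1 library, no test was run. Shares have exact Clopper-Pearson intervals and ratios exact conditional binomial intervals at 95%, for counting error only. A gene was called at a ratio of at least 2 or at most 0.5 with at least 20 UMIs over both libraries. A count of 0 allows up to 3 counts. Barcodes with at least 5 UMIs of nucleated-cell markers were called mixed. Free RNA was not removed.

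The members and the 18 gene lists were chosen with earlier results of these data known. The genes named were all Hba-, Hbb- and Hbq genes, the markers, the highest genes of each list, the 20 highest non-haemoglobin genes, the 15 genes with the highest ratio to other barcodes, and the 5 highest and 5 lowest mgR to WT ratios among 208 genes. The last required the same direction in the mean over barcodes and, in the higher library, at least 50% of the level of its other barcodes. Other genes were named after their values were seen. Some genes that these rules select are not reported here. Alternatives were other thresholds, left-out barcodes, means over barcodes, thinning to 500 UMIs, other scalings and other count minimums. Python 3.11.15, NumPy 2.4.6, SciPy 1.17.1 and pandas 2.3.3 were used, and interval code was tested on simulated data. Promoter sequences are from RefSeq (GRCm38.p6).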

Additional observations from a re-analysis of the deposited data

How the results depend on the processing

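The share of red cell barcodes barely depended on a threshold of 30% or 80% or on adding the Hbq genes. Among barcodes with at least 200 genes it was 0.110% in WT and 0.169% in mgR, and the difference turned to 0.0594 points, since 191 of 192 and 239 of 245 red cell barcodes were left out. The alpha share was 28.7% in WT and 37.5% in mgR as a mean over barcodes, 28.8% and 37.4% after thinning, and 35.6% in mgR without the mixed barcodes. The Hbb-bt share of beta UMIs was 12.5% and 8.52% as a mean over barcodes, 12.6% and 8.88% after thinning, and in mgR 12.6% without the mixed barcodes and 12.5% with barcodes under 200 genes only. The Hba-a2 share of alpha UMIs in mgR was 41.9% as a mean and 41.6% after thinning. The non-haemoglobin share was 5.15% and 4.72% at a threshold of 30%, 2.91% in mgR at 80%, 2.75% in mgR without the mixed barcodes, 4.01% and 2.73% under 200 genes, 4.20% and 3.74% as a mean, and 3.80% in mgR after thinning.

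Counts of genes higher and lower in mgR were 125 and 54 at a threshold of 30%, 39 higher at 80%, 36 and 18 without the mixed barcodes, 40 higher under 200 genes, 11 and 11 after thinning, 188 and 60 at a minimum of 10 UMIs, and 26 and 17 at 50 UMIs. More or fewer genes tested (521 and 169 at these minimums) enter these counts. The 127 genes higher in red cell barcodes were 127, 127 and 123 under the 3 alternatives tried.

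Some ratios of mgR to WT changed direction. Alas2 went to 1.01 at 80%, 1.06 without the mixed barcodes and 1.06 under 200 genes, and the haem list to 1.04 and 1.03 in the latter 2. S100a8 went to 0 at 80%, without the mixed barcodes and under 200 genes, and S100a9 to 0.981 without the mixed barcodes. Ubb went to 1.04 as a mean over barcodes, to 3.71 at an Hbb-bt share under 5%, and to 1.27 from 5% to 15% without the mixed barcodes. By Hbb-bt share, added after seeing the data, the membrane list stood at 1.26 and the clearance list at 1.29 under 5%, and the haem, metabolism and clearance lists at 1.08, 1.07 and 1.02 from 15% up. Apart from the composition each alternative changes by construction, the cause was not tested. No paired analysis was possible because each genotype has 1 library. With 107 to 124 non-haemoglobin UMIs in the median barcode, genes at 0 may be below detection.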
